A study of Mus musculus with 8 samples.

Results

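The immunoglobulin kappa light chain locus of the mouse was covered by 78 array probes, of 55661 non-control probes in all. A probe was a member if the files place it on chromosome 6 between 67.5 and 70.72 Mb of build mm9, and if its gene name starts with Igk or its description holds the words immunoglobulin, Ig kappa, antibody or predicted gene. No signal enters that rule, but the locus itself was chosen by measured values, with the genotype differences in log2 signal of these arrays known, so those differences are given as a description. The 78 probes carry 75 distinct names, most of them transcript identifiers. Another 33 probes between the same coordinates did not meet the rule.

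The RNA was from bone marrow of 6-week-old mice, and each of 4 groups had 2 arrays. KSL Vav-Etv2 and KSL control are cells sorted for c-Kit and Sca-1 and against lineage markers, the fraction that holds haematopoietic stem and progenitor cells. Gr Vav-Etv2 and Gr control are Gr-1 and Mac-1 positive cells, a sort that takes in granulocytes and their late precursors but is not limited to them. In Vav-Etv2 mice a transgene for Etv2, an ETS transcription factor needed for the first blood and vessel cells, is switched on by iCre, whose Vav promoter works in nearly all blood cells, B lymphocytes included. All groups share a mixed strain background (B6/CBA and others), cell sorting with no treatment afterwards, and Cy3 labelling after low-input amplification. Nothing in the labels ties an array to its own animal or to a pool, so every p-value below reflects the spread of these arrays alone, which may be technical.

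The kappa locus encodes most of the light chains of mouse antibodies. Long before any antibody is made it holds an array of variable (V) segments, a short cluster of joining (J) segments and 1 constant region. In developing B lymphocytes the RAG recombinase cuts and joins a V to a J segment, and the rearranged gene is then transcribed and spliced to the constant region. B cells transcribe it, and plasma cells, which secrete antibody, transcribe it at very high levels. Stem cells, uncommitted progenitors and granulocytes do not carry rearranged kappa genes as part of their own programme, although unrearranged segments can be transcribed at low levels in lymphoid precursors.

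All member probes are 60 bases long, and several of them share most of their letters. The probes below are shown because the results turn on them: the only probe called between genotypes and its near copy, other probes of V segments with large differences, a near-identical pair, a V probe that behaves unlike the rest, and the constant region. Capitals mark TAT or TAC, then TAT, TAC, TTT or TTC, then TGT or TGC, the codons of the conserved tyrosine, tyrosine or phenylalanine, and cysteine near the end of a V segment. In the constant region probe they mark the last codon and the stop codon. Sequences are the probes as the files give them, 5′ to 3′, and a probe with no capitals lacks these letters in its 60 bases.
ENSMUST00000103403, chr6:70648995-70649054, plus strand: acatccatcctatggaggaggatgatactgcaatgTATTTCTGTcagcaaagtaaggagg
ENSMUST00000103396, chr6:70468774-70468833, plus strand: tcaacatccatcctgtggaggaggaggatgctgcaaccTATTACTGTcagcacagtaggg
ENSMUST00000103404, chr6:70653921-70653980, plus strand: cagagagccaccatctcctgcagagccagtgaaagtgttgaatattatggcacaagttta
Igkv5-39, chr6:69850418-69850477, minus strand: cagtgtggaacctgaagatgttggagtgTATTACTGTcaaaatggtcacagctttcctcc
ENSMUST00000103401 (first probe), chr6:70622214-70622273, plus strand: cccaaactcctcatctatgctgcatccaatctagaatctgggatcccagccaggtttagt
ENSMUST00000103401 (second probe), chr6:70622312-70622371, plus strand: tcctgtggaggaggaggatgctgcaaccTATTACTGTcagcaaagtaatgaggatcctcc
ENSMUST00000103366, chr6:69725919-69725978, minus strand: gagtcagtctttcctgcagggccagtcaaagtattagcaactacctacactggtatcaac
ENSMUST00000103368, chr6:69773526-69773585, minus strand: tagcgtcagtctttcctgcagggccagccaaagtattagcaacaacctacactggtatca
ENSMUST00000103320, chr6:68206771-68206830, plus strand: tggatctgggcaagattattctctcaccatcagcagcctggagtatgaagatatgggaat
ENSMUST00000103323, chr6:68376007-68376066, plus strand: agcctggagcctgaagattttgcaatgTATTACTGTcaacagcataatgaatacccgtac
ENSMUST00000103410, chr6:70676692-70676751, plus strand: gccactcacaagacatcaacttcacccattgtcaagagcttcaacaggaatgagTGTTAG
The marked codons were found in 34 of the 78 member probes (43.6%), all on the sense strand, against 1.47% of all 55661 probes searched on both strands. The median KSL difference between genotypes was -4.21 log2 over the 29 tested members with the codons and -3.29 over the 39 without.

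Probes of neighbouring V segments may hybridise to one another's RNA, and the sequences show where. With at least 48 of 60 bases identical, 13 pairs of members were found, made up of 20 probes, and a further 8 pairs joined a member to 1 of 4 probes outside the rule. The closest pairs shared 55 bases, ENSMUST00000103397 with the second probe of ENSMUST00000103401, and ENSMUST00000103386 with ENSMUST00000103393. ENSMUST00000103366 and ENSMUST00000103368 share 54 bases, and their KSL differences between genotypes were close, -6.91 and -6.37 log2. ENSMUST00000103403 and ENSMUST00000103396 share 49 bases, but their differences were -9.22 and -3.26 log2. Values of members in these pairs are therefore uncertain as values of 1 segment.

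Of the 78 members, 14 could be given a RefSeq symbol (GRCm38.p6, used for names only) through the name or the predicted gene number in the files. Most are therefore called by their transcript identifiers. The files describe ENSMUST00000103410 as the constant region and ENSMUST00000103399 as the V segment 21-7. No member was named for a J segment.

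The arrays themselves were comparable in brightness, with 47.7% to 55.5% of all probes well above background, 0 saturated probes and a 75th percentile of the signal between 136 and 300.2. All 8 arrays lay on 1 slide, KSL on slide row 1 and Gr on row 2, so slide row and cell type cannot be told apart. Kit, the receptor that gives KSL cells their K, stood at 3.45 and 4.32 in KSL Vav-Etv2, 5.15 and 5.15 in KSL control, 1.95 and 1.42 in Gr Vav-Etv2 and 2.04 and 1.84 in Gr control cells (log2 level relative to the array's 75th percentile, the scale of every level below). Of 12 KSL markers, 11 were called higher in KSL control than in Gr control cells. Ly6a, which encodes Sca-1, went against the sort, with 2.26 and 3.09 in KSL Vav-Etv2 and 3.65 and 3.59 in KSL control cells but 4.48 to 6.33 in Gr cells. Camp, a granule protein of neutrophils, stood at 9.78 to 10.80 on the Gr arrays, but also at 7.16 and 7.21 in KSL control cells. Of 11 granulocyte genes tested, 10 were lower in KSL control than in Gr control cells. Only 2 of the 11 were called lower, beside 18.5% of all probes. S100a9, for 1, read 9.69 and 9.48 in KSL control cells, against 10.66 and 9.59 in Gr control cells. All 8 monocyte and macrophage markers tested were lower in KSL control than in Gr control cells. Of these, 6 were called, beside 18.5% of all probes, and Csf1r stood at 6.49 to 7.16 on the Gr arrays. Etv2 stood at 0.19 and -1.24 in KSL Vav-Etv2 cells, against -4.37 and -4.73, not well above background, in KSL control cells. In Gr cells it stood at -0.55 and -1.29 in Vav-Etv2 cells, at -4.48, not well above background, in Gr control 1, but at -0.54, well above background, on the array labelled Gr control 2, which goes against its label.

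Kappa signal was found above all in KSL control cells, and it was smaller and uneven in the other groups. Of the 78 members, 22 and 58 were well above background on KSL Vav-Etv2 arrays 1 and 2, against 68 and 68 on the KSL control arrays. In Gr cells the counts were 31 and 15 on the Vav-Etv2 arrays and 33 and 20 on the control arrays. The median level of the 78 members was -6.12 and -2.09 on the KSL Vav-Etv2 arrays, against 0.33 and 0.22 on the KSL control arrays. It was -4.06 and -6.42 on the Gr Vav-Etv2 arrays, against -4.33 and -6.27 on the Gr control arrays. The share of all probes above background was 48.1% to 53.3% on the Vav-Etv2 arrays and 47.7% to 55.5% on the control arrays.

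**Figure D1:**
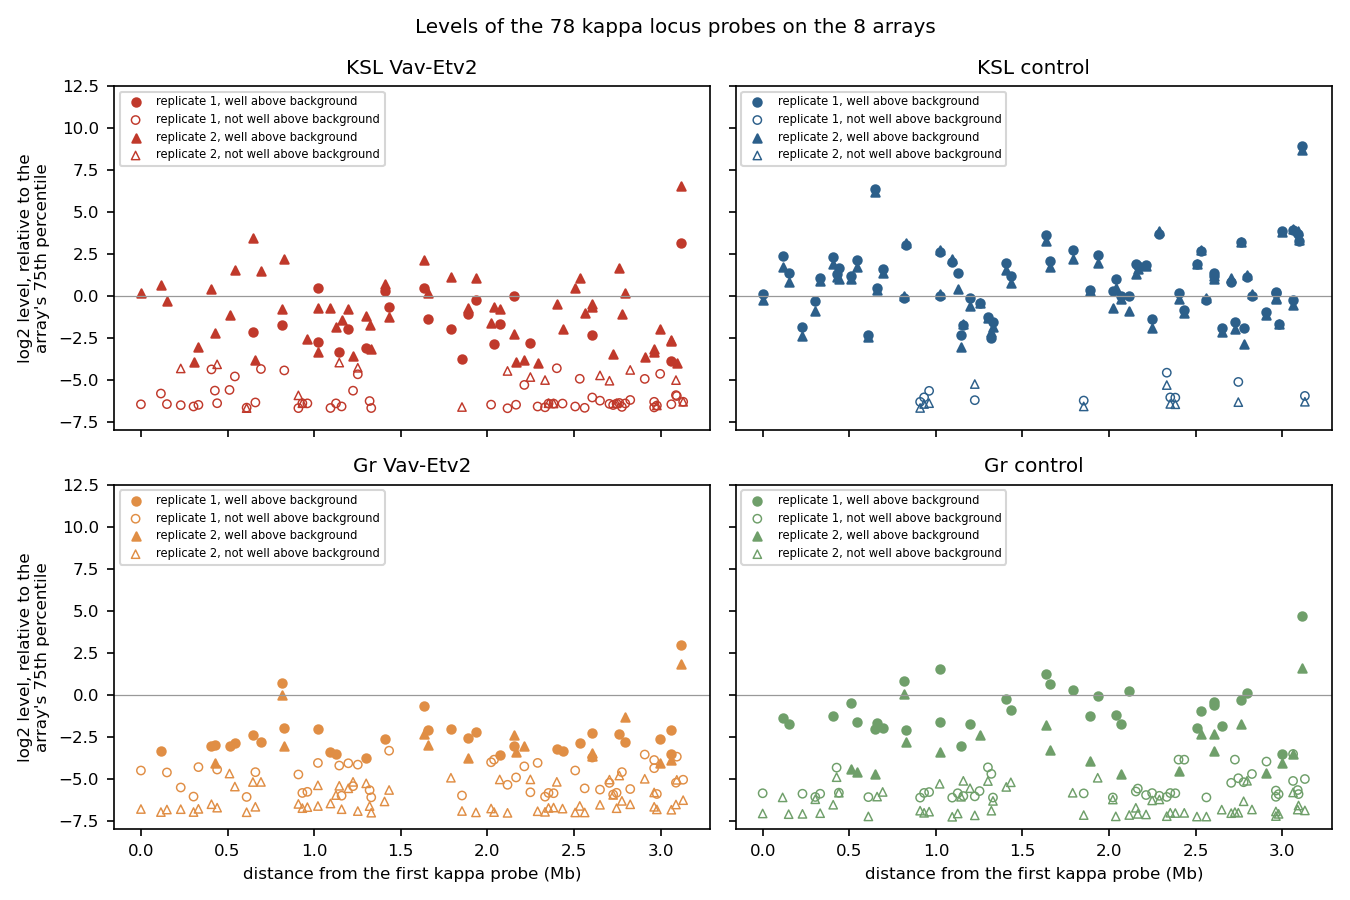
Log2 level of each of the 78 kappa probes, relative to the array's 75th percentile, against distance in Mb from the first probe of the locus, with 1 panel per group, circles for replicate 1, triangles for replicate 2 and open symbols for probes not well above background. The KSL control replicates lie on each other along the whole locus, while on KSL Vav-Etv2 array 1 only 22 probes are filled, against 58 on array 2; the constant region is the top point at the right end in each panel.

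Testing was limited to probes that were well above background on 2 or more of the 8 arrays, and 68 members passed. All 68 were well above background on both KSL control arrays, and 7 of them on no other array, so these 7 passed only through the group in which they were high. Of the 68, 19 were also above background on both KSL Vav-Etv2 arrays, 37 on array 2 alone, 2 on array 1 alone and 10 on neither. Of the 10 members left out, 7 were above background on no array and 3 on 1 array only. Igk-C, a second probe named for the constant region but placed beyond it at chr6:70690489-70690548, was among the 7, with levels between -6.89 and -5.02 on all arrays. At the other end of the locus the first member, ENSMUST00000103303, read -6.45, not above background, and 0.18 on the KSL Vav-Etv2 arrays, against 0.09 and -0.23 on the KSL control arrays. Past the constant region, the nearest probe outside the interval belongs to Eif2ak3, another gene, and read 0.77 and 1.05 on the KSL Vav-Etv2 arrays, against 0.49 and 0.66 on the KSL control arrays.

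The constant region is the part of the locus that every kappa transcript shares. Its probe, ENSMUST00000103410, read 3.15 and 6.56 in KSL Vav-Etv2 cells, against 8.91 and 8.69 in KSL control cells. In Gr cells it read 2.93 and 1.81 on the Vav-Etv2 arrays, against 4.67 and 1.60 on the control arrays, and it was above background on all 8 arrays. The KSL groups did not overlap, and the KSL Vav-Etv2 arrays were much farther apart than the KSL control arrays. That difference was -3.95 (SE 1.30, n = 2 and 2, limma adjusted p = 0.576 over all 32352 probes tested), which did not pass 0.05. In Gr cells the groups overlapped, and the difference was -0.77 (limma adjusted p = 1.0).

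Among V segments, ENSMUST00000103403 was the 1 member that passed the test between KSL Vav-Etv2 and KSL control cells. It fell to -5.90 and -5.01 in KSL Vav-Etv2 cells, neither well above background, against 3.67 and 3.86 in KSL control cells. The level in KSL Vav-Etv2 cells was at least 279-fold lower, and the measured difference was -9.22 (SE 0.59, limma adjusted p = 0.0143). The probe is 1 of the 7 members that passed the filter only through the KSL control arrays, and the locus was chosen with these differences known, so the call describes these arrays and is no independent support. In Gr cells it was above background on no array, at -5.24 and -6.54 on the Vav-Etv2 and -5.68 and -6.84 on the control arrays. Of all probes tested, 0.00927% were called lower in KSL Vav-Etv2 cells (3 of 32352), and 0 higher. The call was lost without KSL Vav-Etv2 array 1 (adjusted p = 0.231), without either KSL control array (0.166 and 0.158), and with the KSL arrays fitted alone (0.0581). The range over all alternatives was 0.00153 to 0.231, and under other background corrections or scalings up to 9 members were called.

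The direction was the same in every member tested when the replicates were averaged: 68 of 68 differences were negative, from -9.22 to -0.88, with a median of -3.89, against 0.02 over all probes tested. Both KSL control arrays lay above both KSL Vav-Etv2 arrays for 62 of the 68, beside 24.3% of all probes tested, and the reverse held for 0 of the 68, beside 26.8%. With the locus picked for these very differences, none of these counts is support. In 39 of the 68 the unadjusted limma p was under 0.05, against 3.89% of all probes on the lower side. The SE of the members' differences ranged from 0.47 to 2.49, with a median of 1.23.

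The 7 V probes that followed ENSMUST00000103403 in size were clear on both KSL control arrays and not well above background on at least 1 KSL Vav-Etv2 array. Igkv5-39 read -6.58 and -3.98 in KSL Vav-Etv2 cells, against 3.67 and 3.89 in KSL control cells (difference -9.06, SE 1.08, limma adjusted p = 0.101). The first probe of ENSMUST00000103401 read -6.44 and -2.66, against 3.90 and 4.00 (difference -8.51, SE 1.40). Its second probe, which shares 55 bases with ENSMUST00000103397, read -3.88 and -2.59, against -0.23 and -0.53, so the probes of this 1 transcript differed by -8.51 and -2.85. ENSMUST00000103404 read -5.95 and -3.99 in KSL Vav-Etv2 cells, against 3.27 and 3.31 in KSL control cells (difference -8.26, SE 0.72, limma adjusted p = 0.0656). ENSMUST00000103399 read -4.63 and -1.97, against 3.84 and 3.83 (difference -7.14, SE 0.87). ENSMUST00000103366 read -6.47 and -3.93, against 1.78 and 1.64 (difference -6.91, SE 0.94).

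Among these, 2 more V probes were not above background on either KSL Vav-Etv2 array, so only a bound can be given. ENSMUST00000103387 read -6.42 and -5.04 in KSL Vav-Etv2 cells, against 0.83 and 1.09 in KSL control cells, at least 40.0-fold lower. ENSMUST00000103316 read -6.38 and -4.07, against 1.64 and 1.00, at least 46.2-fold lower. In each of these 7 probes the KSL groups did not overlap and the second KSL Vav-Etv2 array was the higher of the pair. The 7 were picked for the size of this difference, so the lack of overlap is no support. Both KSL control arrays were the higher for 24.3% of all probes tested. The limma adjusted p was between 0.0656 and 0.182 for all 7, above 0.05.

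Other V probes kept a clear signal in KSL Vav-Etv2 cells. ENSMUST00000103320 read -2.13 and 3.46 in KSL Vav-Etv2 cells, against 6.38 and 6.21 in KSL control cells (difference -5.63, SE 1.85). ENSMUST00000103347 read 0.50 and 2.16, against 3.61 and 3.28 (difference -2.11, SE 1.07). The first probe of ENSMUST00000103328 read 0.46 and -0.71, against 2.63 and 2.76 (difference -2.82, SE 1.66). The KSL groups did not overlap in any of the 3, beside 24.3% of all probes tested with both KSL control arrays the higher. None of the 3 passed the test (limma adjusted p = 0.573, 0.815 and 0.875). ENSMUST00000103323 was unlike the rest, with -1.72 and -0.75 in KSL Vav-Etv2 and -0.12 and 0.02 in KSL control cells and no less in Gr cells, at 0.72 and -0.05 on the Vav-Etv2 and 0.82 and 0.03 on the control arrays.

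**Figure D2:**
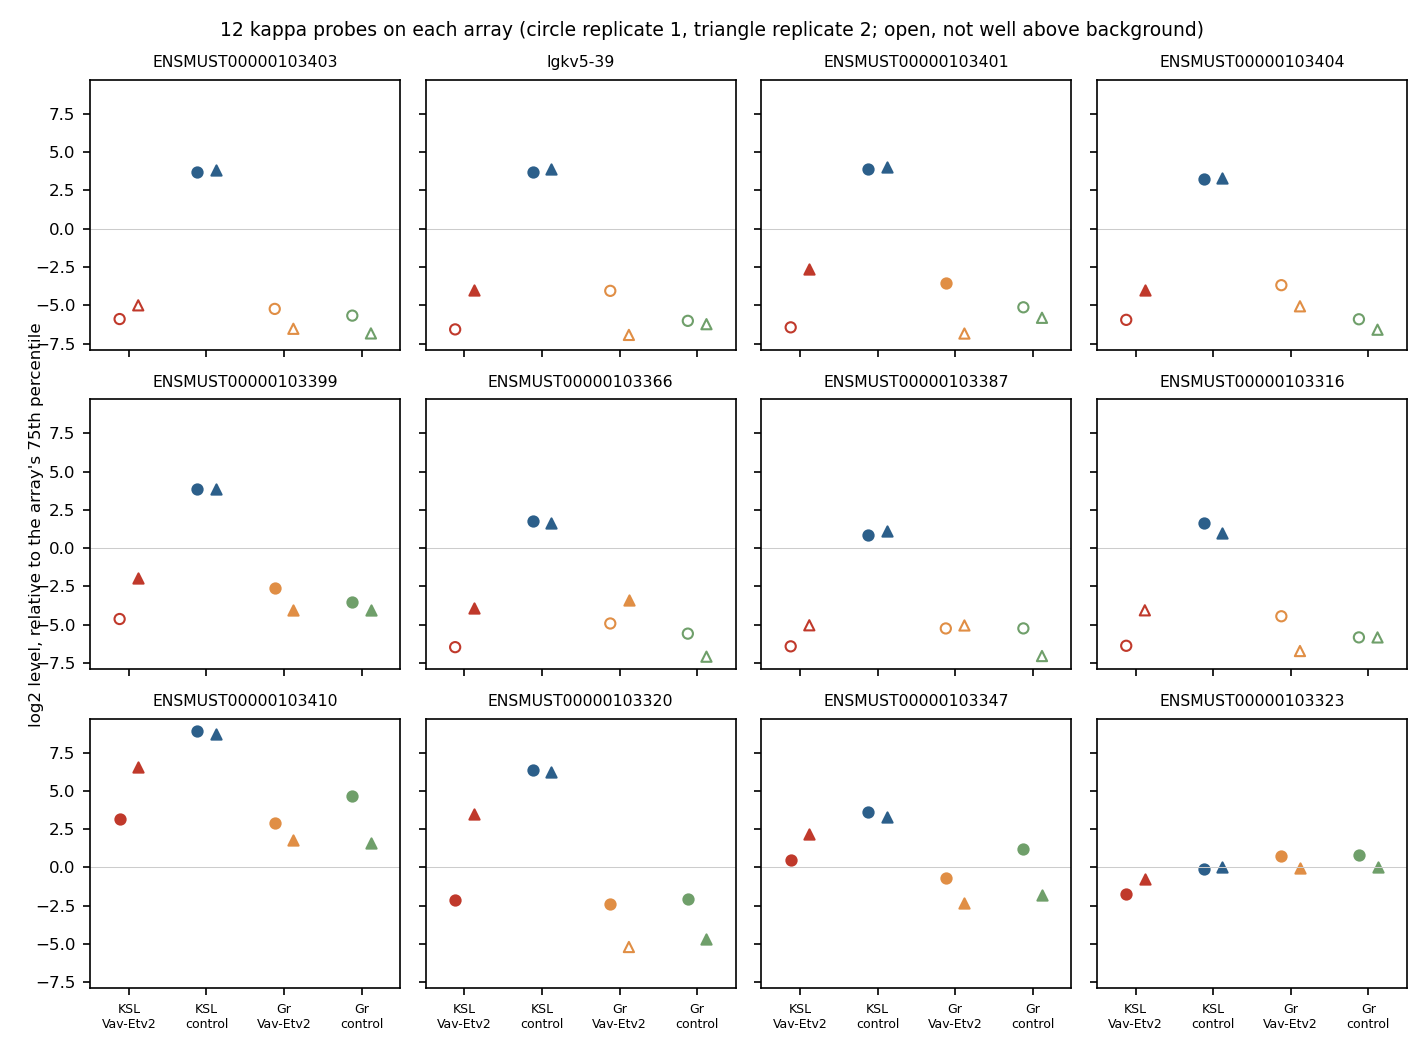
Log2 level of 12 kappa probes on each array, relative to the array's 75th percentile, by group, with circles for replicate 1, triangles for replicate 2 and open symbols where the probe was not well above background (ENSMUST00000103401 is shown by its first probe). In 11 of the panels the KSL control pair stands alone at the top, and in ENSMUST00000103323 all 8 arrays lie between -1.72 and 0.82.

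The KSL Vav-Etv2 replicates differed far more than the KSL control replicates. The median absolute difference between replicates over the 68 members was 2.63 in KSL Vav-Etv2 cells, with a maximum of 8.05, against 0.22 in KSL control cells, with a maximum of 1.00. Over all probes tested the medians were 0.32 and 0.20. Array 1 carried the lower kappa signal: 61 of 68 members read higher on array 2. Set against the mean of the KSL control arrays, array 1 had a median difference of -5.90 (68 of 68 lower, from -10.4 to -0.62), and array 2 had -1.98 (62 lower and 6 higher, from -8.77 to 1.30). On array 2, 12 members lay within 1 log2 unit of the control mean, and on array 1 only 1 did.

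The members above the control mean on array 2 were ENSMUST00000103392 (1.30), ENSMUST00000103338 (0.63), ENSMUST00000103333 (0.28), ENSMUST00000103303 (0.25), ENSMUST00000103337 (0.07) and LOC100046496 (0.03). On array 1 the same probes differed from the control mean by -4.22, -3.92, -4.89, -6.38, -1.83 and -5.81, in that order. They were picked here after their values were seen.

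**Figure D3:**
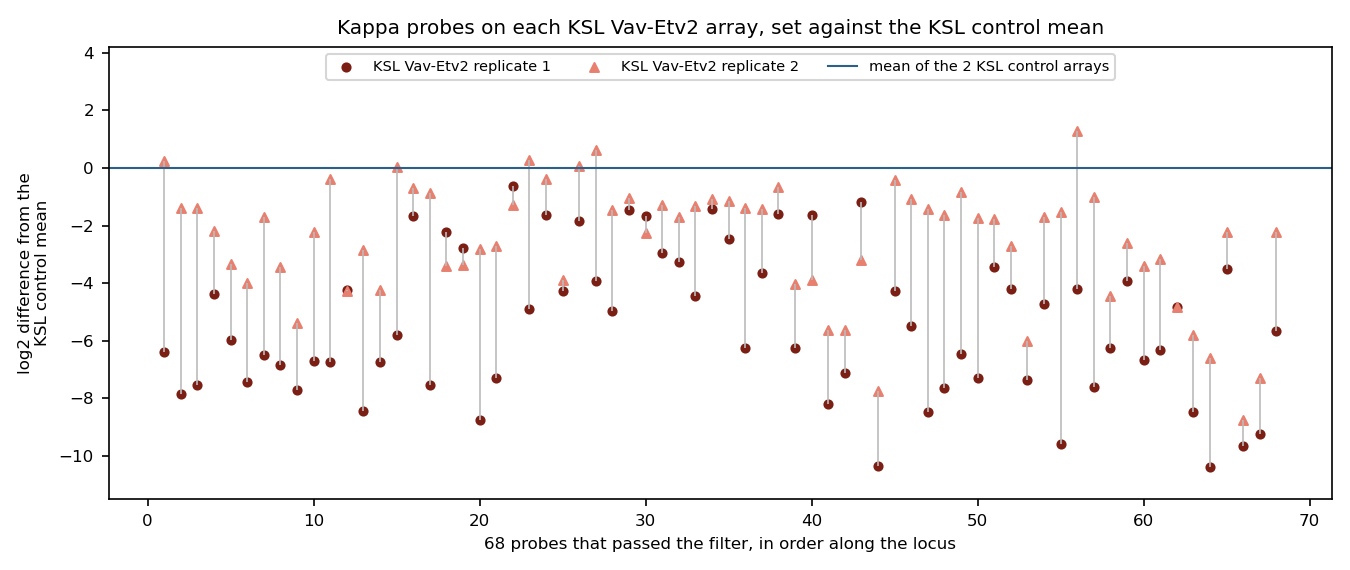
Log2 difference of each KSL Vav-Etv2 array from the mean of the 2 KSL control arrays, for the 68 tested kappa probes in order along the locus; grey lines join the replicates and the blue line at 0 is the control mean. All circles (replicate 1) lie below 0, with a median of -5.90, and 62 of 68 triangles (replicate 2) do, with a median of -1.98.

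The pattern of levels across the members, as distinct from their height, was also less alike between the KSL Vav-Etv2 replicates. Pearson's r over the 68 members was 0.52 between the KSL Vav-Etv2 arrays and 0.989 between the KSL control arrays. It was 0.724 between the Gr Vav-Etv2 arrays and 0.645 between the Gr control arrays. KSL Vav-Etv2 array 1 had an r of 0.391 and 0.368 with the KSL control arrays, and array 2 of 0.603 and 0.577. These values are descriptions over probes that share arrays, probe affinity and in part sequence, and on the arrays with few members above background they rest largely on readings at background.

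Along the locus the residual signal on KSL Vav-Etv2 array 1 was uneven. The interval was cut into 3 stretches of equal length, from 67.5 to 68.573, to 69.647 and to 70.72 Mb, with 20, 23 and 35 members. On KSL Vav-Etv2 array 1, 2, 15 and 5 members of these stretches were above background, and on array 2, 15, 20 and 23 were, against 17, 21 and 30 on each KSL control array. The middle stretch, in which 22 of 23 members lie on the minus strand, thus held 15 of the 22 members seen on array 1. Its median KSL difference was -2.30, against -4.46 in the first and -4.70 in the last stretch, the one nearest to the constant region. The stretches were drawn with the data in view and the difference between them was not tested.

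**Figure D4:**
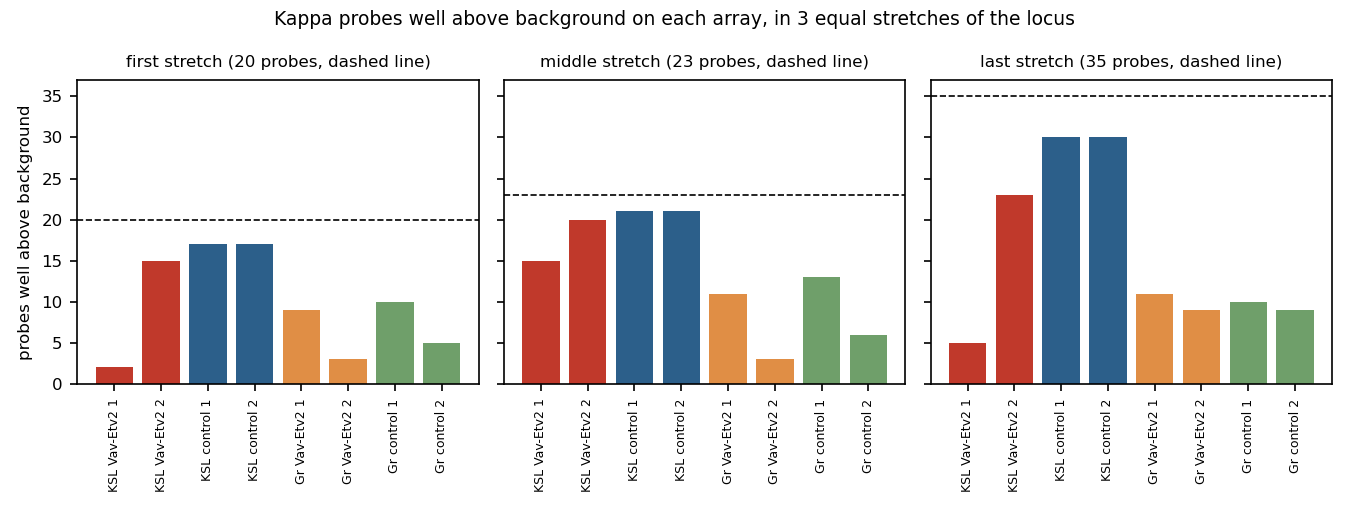
Number of kappa probes well above background on each array, in 3 equal stretches of the locus (bars, coloured by group; the dashed line gives the number of member probes). KSL Vav-Etv2 array 1 has 2, 15 and 5 probes, array 2 has 15, 20 and 23, and each KSL control array has 17, 21 and 30.

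In Gr cells the members showed no shift shared by the replicates. None of the 68 was called by limma between Gr Vav-Etv2 and Gr control cells, beside 0% of all probes called higher and 0.00309% called lower. An unadjusted p under 0.05 was reached by 3 members, all higher in Gr Vav-Etv2 cells, against 0.612% of all probes on that side. The differences ran from -3.11 to 3.52, with 29 positive and 39 negative and a median of -0.27, against -0.01 over all probes tested. Both Vav-Etv2 arrays lay above both control arrays for 7 members (5.93% of all probes) and below them for 3 (6.21%). The sign of the median turned with the settings, to 0.12 with a floor at the lowest signal above background and to 0.77 without Gr control 1, and it was -0.84 without the array labelled Gr control 2.

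The Gr probes with the largest differences included readings at background or groups with replicates far apart. ENSMUST00000103365 read -3.03 and -2.42 in Gr Vav-Etv2 cells, against -5.76 and -6.73, neither above background, in Gr control cells, at least 3.12-fold higher. ENSMUST00000103368 read -4.27, not above background, and -3.03, against -5.97 and -7.13, neither above background, at least 1.65-fold higher. ENSMUST00000103380 read -2.89 and -6.62, against -0.97 and -2.32 (difference -3.11, SE 1.96). The first probe of ENSMUST00000103328 read -2.07 and -5.40, against 1.50 and -3.44 (difference -2.76, SE 1.66), so its groups overlapped. The limma adjusted p was 1.0 for all 4.

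Replicates within each Gr group were far apart, and the first array of each was the higher. The median absolute replicate difference over the 68 members was 1.58 in Gr Vav-Etv2 and 1.66 in Gr control cells, against 0.60 and 0.67 over all probes tested. Array 2 was the higher for only 7 of 68 members in Gr Vav-Etv2 and for 3 in Gr control cells. Most members were not above background on these arrays, and their readings at background depend on the 75th percentile subtracted. Its signal was 149.1 and 272.1 on the Gr Vav-Etv2 arrays and 136.3 and 300.2 on the Gr control arrays. ENSMUST00000103326, above background on no array, read -5.85 and -6.75, and -5.85 and -7.03, in that order. The part of this offset in the replicate differences was not tested. Of the 31 members above background on Gr Vav-Etv2 array 1, 22 (71.0%) were also above background on Gr control array 1, which is 66.7% of its 33. Sex-linked genes split the replicates too. Xist, transcribed from the inactive X chromosome, read 0.35 and -6.82 on Gr Vav-Etv2 arrays 1 and 2, against 0.27 and -7.10 on Gr control arrays 1 and 2, and the Y-linked gene Eif2s3y ran the other way, with -5.96 and 3.98, against -5.98 and 3.30. B cell markers were higher on the first arrays, with a summed signal (in units of the array's 75th percentile) of 41.4 and 9.60 on the Gr Vav-Etv2 and 14.5 and 8.76 on the Gr control arrays. The part of sex or of B cells in the kappa values was not tested.

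The Vav-Etv2 difference itself was compared between cell types by the interaction in the same fit. None of the 68 members was called by limma, beside 0% of all probes called higher and 0.00309% called lower, and 24 members had an unadjusted p under 0.05 on the lower side, against 2.24% of all probes. The KSL difference was the more negative for 65 of 68 members, with a median gap of -3.19, against 0.02 over all probes tested. The locus was chosen with the KSL differences known, and they are part of the interaction, so none of these counts is support. Of the 68, 7 passed the filter only through the KSL control arrays. Without KSL Vav-Etv2 array 1 the median gap was -1.19 (55 of 68 negative), without KSL Vav-Etv2 array 2 it was -4.99, and leaving out Gr control 2 (as labelled) gave -2.04 (53 of 68 negative). ENSMUST00000103403 had a gap of -9.59 (limma adjusted p = 0.164) and ENSMUST00000103404 of -10.1 (limma adjusted p = 0.217). Neither probe was well above background on any Gr array, nor on KSL Vav-Etv2 array 1, so these gaps rest on readings at background and their order is not known. With normexp background correction, median scaling and quantile normalization, 6, 1 and 2 members were called, beside 6, 2 and 4 of all probes tested.

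Between the control cell types more of the kappa probes were called. In KSL control cells 36 of the 68 members were higher than in Gr control cells at a limma adjusted p under 0.05, and 0 were lower, beside 15.7% of all probes called higher and 18.5% called lower. The 7 members that passed the filter only through the KSL control arrays are all among the 36. The other 29 were above background on at least 1 further array, but 26 of the 36 were above it on neither Gr control array. All 68 members were above background on both KSL control arrays, so each passed the filter through those arrays. The counts therefore describe these arrays and are no independent support. The median difference was 4.68, against -0.15 over all probes tested, and both KSL control arrays lay above both Gr control arrays for 65 of 68 (34.2% of all probes). ENSMUST00000103323 was the 1 member with a negative difference, -0.47 (SE 0.48). Without KSL control array 1 or 2 the median difference was 4.48 and 4.84. It was 6.18 without Gr control 1. Without Gr control 2, whose Etv2 signal goes against its label, it was 3.63 (3 of 68 negative).

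In the first stretch 8 of 17 tested members were called, and the differences (KSL control minus Gr control, log2) were 6.40 for ENSMUST00000103303, 4.38 for ENSMUST00000103308, 5.57 for ENSMUST00000103311, 7.44 for ENSMUST00000103312, 5.83 for Gm5222, 7.16 for ENSMUST00000103316, 4.26 for ENSMUST00000103319 and 9.67 for ENSMUST00000103320. In the middle stretch 8 of 21 were called, with 8.80 for ENSMUST00000103330, 7.37 for ENSMUST00000103331, 3.46 for ENSMUST00000103337, 4.53 for ENSMUST00000103339, 3.73 for ENSMUST00000103347, 2.97 for ENSMUST00000103355, 5.97 for ENSMUST00000103360 and 3.16 for ENSMUST00000103362. The last stretch held 20 of the 36 calls among its 30 tested members. From its start they were ENSMUST00000103365 (7.86), ENSMUST00000103366 (8.05), ENSMUST00000103368 (8.38), ENSMUST00000103369 (4.45), Igkv5-39 (9.91), ENSMUST00000103374 (4.18), ENSMUST00000103381 (6.50), ENSMUST00000103384 (3.09), ENSMUST00000103387 (7.11) and ENSMUST00000103394 (5.83). Nearer to the constant region lay ENSMUST00000103396 (3.30), both probes of ENSMUST00000103397 (6.70 and 6.35), ENSMUST00000103398 (4.83), ENSMUST00000103399 (7.63), both probes of ENSMUST00000103401 (9.43 and 3.14), ENSMUST00000103403 (10.0), ENSMUST00000103404 (9.55) and the constant region, ENSMUST00000103410 (5.66, SE 1.30, limma adjusted p = 0.0183).

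For 26 of the 36 neither Gr control array was above background, so the measured difference is no fold. The bounds were at least 280.1-fold higher in KSL control cells for ENSMUST00000103403, 284-fold for Igkv5-39, 319-fold for the first probe of ENSMUST00000103401 and 202-fold for ENSMUST00000103404. Slide row and cell type cannot be told apart in any of these values. Sex-linked genes differed between the cell types too. Xist read 2.12 to 2.69 on the KSL arrays, and Eif2s3y was not well above background on any of them. Each Gr group held an array with Xist and another with Eif2s3y. Sex is thus partly mixed with cell type in every comparison of KSL with Gr cells, and its part was not tested. In bulk RNA, fewer cells with kappa transcripts and less kappa RNA per cell cannot be told apart either, here or between the genotypes.

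Between the Vav-Etv2 cell types the members were closer. In KSL Vav-Etv2 against Gr Vav-Etv2 cells limma called 0 of the 68, beside 10.5% of all probes called higher and 13.5% called lower, and 10 members reached an unadjusted p under 0.05 on the higher side and 1 on the lower, against 19.3% and 21.4% of all probes. The median difference was 1.32, against -0.10 over all probes tested. Its sign rested on KSL Vav-Etv2 array 2: without that array the median was -0.36 (47 of 68 negative), and without array 1 it was 2.74. Without Gr Vav-Etv2 array 1 or 2 it was 2.20 and 0.76. Both KSL Vav-Etv2 arrays lay above both Gr Vav-Etv2 arrays for 18 of 68 members (32% of all probes). The smallest limma adjusted p was 0.0535. With the replicate block 12 members were called (17.6% of the 68, against 44.7% of all probes).

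Most genes that act on the locus had positive KSL differences, and none passed the test. They were described through lists of named genes, none of which had a gene called between KSL Vav-Etv2 and KSL control cells or between Gr Vav-Etv2 and Gr control cells. Of 13 genes that carry out rearrangement, 11 had positive KSL differences, with a median of 0.33. Rag1, a subunit of the recombinase, read 1.98 and 2.52 in KSL Vav-Etv2 cells, against -0.83 and -0.61 in KSL control cells (difference 2.97, SE 0.87, limma adjusted p = 0.487). Rag2, its partner, differed by 1.31 and Lig4, the ligase of end joining, by 1.07. Of 23 transcription factors that bind or fold the locus, 18 had positive differences, with a median of 0.30, and they included the B lineage factors Ebf1 (2.70) and Pou2af1 (1.43). Pax5, also of the B lineage, was not well above background on either KSL control array and was at least 3.43-fold higher in KSL Vav-Etv2 cells, without passing the test.

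All 4 genes of the surrogate light chain list had positive differences, with a median of 3.34. The products of Vpreb1, Vpreb2 and Igll1 stand in for the light chain before kappa is rearranged, and Vpreb3 is listed with them. Igll1 read 2.33 and 2.62 in KSL Vav-Etv2 cells, against -1.31 and -1.25 in KSL control cells (difference 3.76, SE 1.02, limma adjusted p = 0.421). Vpreb1 differed by 3.45 and Vpreb3 by 3.24. The list's summed signal was 64.5 and 88.5 in KSL Vav-Etv2 cells, against 7.70 and 8.69 in KSL control cells. Of 11 B cell receptor partners, 9 had positive differences, with a median of 0.64, although 3 lay below the control mean on array 1 and 2 on array 2. Those with positive differences included the kinase Blk (2.06) and the signalling chain Cd79a (1.68).

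Plasma cell genes were divided, and 2 of them followed the kappa probes. Jchain, which joins secreted antibodies into polymers, read 1.25 and 4.09 in KSL Vav-Etv2 cells, against 6.09 and 6.09 in KSL control cells (difference -3.42, SE 1.98, limma adjusted p = 0.870). Tnfrsf17, the survival receptor BCMA, read -5.44, not above background, and -4.23, against -1.62 and -1.60 (difference -3.23, SE 0.58, limma adjusted p = 0.224). The third in size was Derl3, of the endoplasmic reticulum, with -1.17. Of the 11 genes, 5 had positive and 6 negative differences, with a median of -0.17, and the summed signal was 72.5 and 76.2 in KSL Vav-Etv2 cells, against 132 and 138 in KSL control cells. Without Jchain the sums of the other 10 genes were 70.1 and 59.2 in KSL Vav-Etv2 cells, against 63.7 and 69.99 in KSL control cells, so the gap between the groups was that of 1 gene. No probe on the array went under any of the 9 heavy chain constant region names searched.

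Markers of other cells moved with the arrays as well. The 13 B cell markers had 11 positive KSL differences, with a median of 0.96 and a summed signal of 70.6 and 129 in KSL Vav-Etv2 cells, against 32.8 and 33.4 in KSL control cells. On array 1, 6 of the 13 lay below the control mean (median 0.57), and on array 2, 1 did (median 2.14). Of 11 granulocyte genes, 10 had negative differences, with a median of -1.80, and this was array 1 alone: their summed signal was 546 and 2083 on the KSL Vav-Etv2 arrays, against 2011 and 1902 on the KSL control arrays. Lcn2 read 1.74 and 6.91 in KSL Vav-Etv2 cells, against 6.89 and 6.90 in KSL control cells, Camp differed by -2.36 and Ngp by -2.10. For these 11 genes the median difference from the control mean was -3.96 on array 1 and 0.09 on array 2, whereas for the kappa probes it was -5.90 and -1.98.

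Among T and NK cell markers, 9 of 12 had negative differences, with a median of -0.55, and Cd3g (-3.10), Cd3d (-2.88) and Gzma (-1.69) differed most. Erythroid markers had 6 negative of 7, among them Slc4a1 (-1.34) and Hba-a1 (-1.15). Of 8 monocyte and macrophage markers 5 were positive, among them Ccr2 (3.33) and Cd68 (0.92), and Siglec1, not well above background on either KSL control array, was at least 2.44-fold higher in KSL Vav-Etv2 cells. KSL markers had 11 negative of 12, led by Hlf (-3.03), Procr (-2.12) and Mecom (-1.39). No gene of these lists passed the test between genotypes, and the part of other cells in the kappa differences was not tested.

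**Figure D5:**
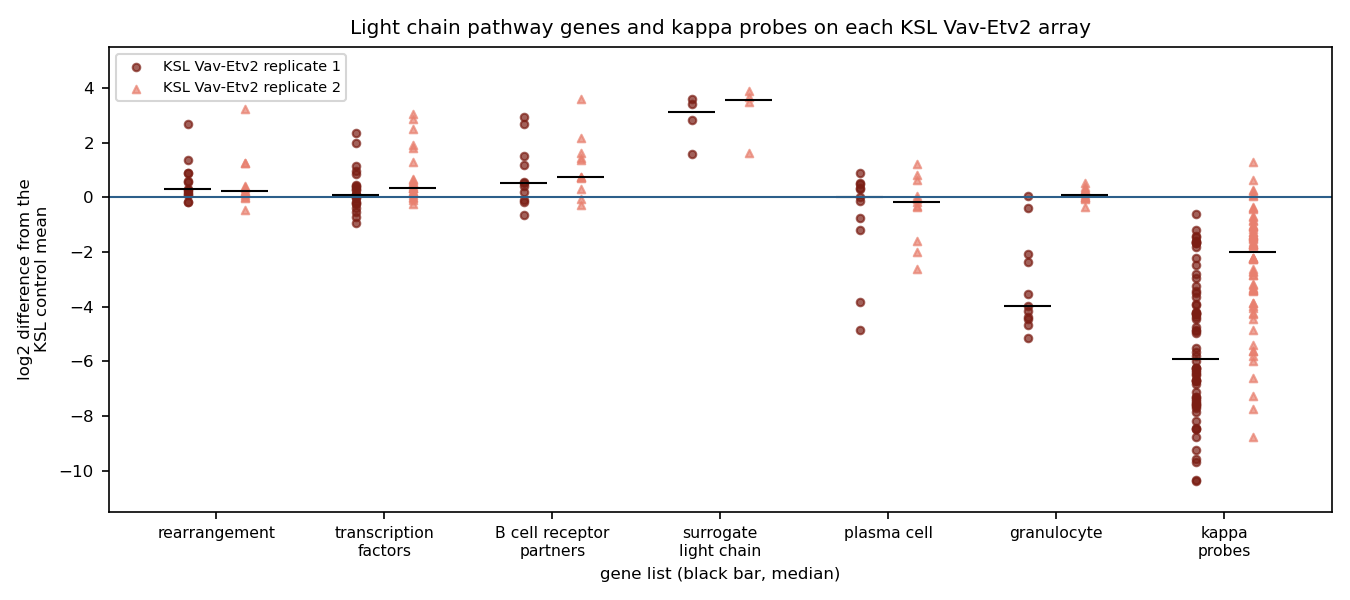
Log2 difference of each KSL Vav-Etv2 array from the mean of the 2 KSL control arrays, for the tested genes of 6 lists and the 68 kappa probes (circles, replicate 1; triangles, replicate 2; black bars, medians). Genes of the surrogate light chain list lie above 0 on both arrays (medians 3.12 and 3.57). Granulocyte genes lie low on array 1 only (medians -3.96 and 0.09), and the medians of the kappa probes lie below 0 on both (-5.90 and -1.98).

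Between cell types the same pathway genes were split. In KSL control against Gr control cells the genes called higher (log2 differences) were Rag2 (5.60), Dntt (8.58), Xrcc5 (2.97), Xrcc6 (2.48) and Atm (3.14) among the rearrangement genes, Tcf3 (1.66), Tcf12 (1.65), Foxp1 (1.08) and Stat5a (1.24) among the factors, Cd79b (1.92) and Blnk (3.32) among the receptor partners, and Sdc1 (5.33), Tnfrsf17 (5.07), Mzb1 (3.23) and Derl3 (4.77) among the plasma cell genes. Rag2, Sdc1 and Tnfrsf17 were not well above background on either Gr control array, so their differences give only bounds, at least 26.4-fold, 30.1-fold and 6.75-fold higher in KSL control cells. Those called lower were Xrcc4 (-0.90), Lig4 (-1.28), Dclre1c (-1.68), Hmgb2 (-1.44), Spi1 (-3.06), Relb (-1.36), Rad21 (-0.93), Syk (-1.99), Lyn (-3.02), Plcg2 (-0.96), Xbp1 (-1.40) and Sec11c (-1.65). No surrogate light chain gene was called there. In KSL Vav-Etv2 against Gr Vav-Etv2 cells, limma called 3 surrogate light chain genes higher, Vpreb1 (4.32), Vpreb2 (2.15) and Igll1 (4.34). It also called 5 rearrangement genes higher, Rag1 (4.41), Rag2 (6.44), Dntt (7.98), Xrcc5 (2.93) and Xrcc6 (2.66), and receptor partners that included Cd79b (1.89), Blnk (4.01) and Blk, which was not well above background on either Gr Vav-Etv2 array (at least 7.57-fold higher). Among the factors Tcf3 (1.20), Foxo1 (1.66) and Pou2af1 (2.65) were called higher, and among the plasma cell genes Mzb1 (3.48), Derl3 (2.95) and Slamf7 (1.11), with Sdc1 and Fkbp11, not well above background on either Gr Vav-Etv2 array, at least 17.7-fold and 2.00-fold higher. Called lower in KSL Vav-Etv2 cells were Dclre1c (-1.49), Hmgb2 (-1.20), Spi1 (-2.32), Relb (-1.29), Syk (-1.40), Lyn (-2.32), Plcg2 (-1.09), Xbp1 (-1.47) and Sec11c (-1.22).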

How the data were processed

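Agilent 1-colour arrays (mm9 design) were deposited as scanner output of Feature Extraction 10.7.3.1, per the file headers, with an intensity per probe (background-corrected processed signal) and above-background flags (other). The submitters' value table was deposited as log2 values, which proved to be centred per probe within each cell type, and was used as a check. Here, log2 processed signal minus each array's 75th percentile was taken, control probes were left out and spots of 1 probe averaged. Probes above background on at least 2 of 8 arrays (32352) were tested in 1 limma 3.58.1 fit (lmFit, eBayes, R 4.3.3) of all arrays with Benjamini-Hochberg adjustment, with no covariate. Named probes were the constant region, the 8 largest KSL and 4 largest Gr differences, the brightest 5 and every called member, and in each list called genes and the 3 largest differences. Other probes discussed singly, for shared sequence, were chosen after their values were seen. Members and lists were chosen with earlier results of these data known. Where a group was below background on all its arrays, a bound against the lowest signal above background replaced the fold. Probes were compared with blastn 2.17.0. The same test was run on simulated data with equal noise in every probe. The kappa probes differ from that setting, so the run is no check on their values. The precision is limited by 2 arrays per group. The check of pairing gave a correlation of same-numbered deviations of 0.064 in KSL and 0.645 in Gr cells. The labels do not pair the samples. A few genes that the naming rule would give are not reported here.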

Additional observations from a re-analysis of the deposited data

Results flagged for a closer look

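The 33 probes left out by the rule include 9 whose annotation holds immunoglobulin words. Their KSL differences ran from -8.06 to -0.01, some of them between readings at background, with -8.06 for ENSMUST00000103310, -4.89 for ENSMUST00000103324 and -3.78 for ENSMUST00000103351. Among the probes between the same coordinates that the rule left out, 2 unnamed probes that were well above background on all 8 arrays read higher on both KSL Vav-Etv2 arrays than on both KSL control arrays. The same held for 26.8% of all probes tested, so it does not set these 2 apart. A_55_P1988328 read 8.87 and 8.91 in KSL Vav-Etv2 cells, against 8.71 and 8.76 in KSL control cells (difference 0.16), and 7.94 and 8.18 in Gr Vav-Etv2 cells, against 7.80 and 8.10 in Gr control cells. A_55_P2051044 read -0.58 and -1.20 in KSL Vav-Etv2 cells, against -1.23 and -1.72 in KSL control cells (difference 0.59), and -3.06 and -1.44 in Gr Vav-Etv2 cells, against -2.11 and -1.53 in Gr control cells. Both were picked out because their signal lay above the controls in probes that the comparisons of the kappa members did not use. They were in the fit over all probes, in which limma called 0 probes higher in KSL Vav-Etv2 cells (3.37% of all probes had an unadjusted p under 0.05 on that side).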

How the results depend on the processing

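Between KSL Vav-Etv2 and KSL control cells, the 1 member called became 9 with normexp background correction, 7 with median scaling, 7 with quantile normalization, 9 with a floor at the lowest signal above background, 2 with an intensity trend and 0 with a filter on all 8 arrays, which left 6 members to test. Leaving out 1 array gave 0 to 5. With only the KSL arrays, the 1 call was ENSMUST00000103398 (limma adjusted p = 0.0444), which also passed the filter only through the KSL control arrays. Over all probes the 3 calls became 18, 23, 45, 15, 6 and 0 in that order of settings, and 0 to 16 with 1 array left out. The median KSL difference was -1.97 with normexp and -1.98 without KSL Vav-Etv2 array 1 (62 of 68 negative). In Gr cells the count was 0 under every alternative run. For the interaction, 0 became 6, 1 and 2 with normexp, median scaling and quantile normalization, beside 6, 2 and 4 of all probes tested. Between KSL control and Gr control, 36 became 4 of 6 with the filter on all arrays, beside 8253 of 22544 probes. With 1 array left out the median difference, 4.68 in the main fit, lay between 3.63 and 6.18. Between KSL Vav-Etv2 and Gr Vav-Etv2, 0 became 1 with normexp, 2 with median scaling and 1 with the floor. It became 2 with the intensity trend and 1 of 6 with the filter on all arrays. Over all probes the 7761 calls became 5747, 7876, 7023, 8740 and (of 22544 tested) 5642, in that order. With the replicate block, the numbers of members called were 1 in KSL, 0 in Gr, 0 for the interaction, 53 between controls (77.9%, against 52.1% of all probes) and 12 between Vav-Etv2 cell types (17.6%, against 44.7%). The cause of these changes was not tested. With 2 arrays a group, readings below background give bounds only.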
